A study of Mus musculus with 16 samples.

Results

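The expression of 10 genes of blood vessel growth and of the endothelium, the cell layer that lines vessels, was followed through inguinal subcutaneous adipose tissue (SAT) and mesenteric visceral adipose tissue (VAT) of lean and obese mice. They were Vegfa, Vegfb, Vegfc, Kdr, Flt1, Tek, Angpt1, Angpt2, Cdh5 and Esm1. They were taken by name: every entry of the expression table whose RefSeq accession maps to one of these 10 symbols was kept, which gave 33 of 130343 entries and 10 of the 35556 genes with a symbol. All mice were male C57BL/6J. From 10 weeks of age and for 12 to 14 months, lean mice ate a normal laboratory diet and obese mice ate a high-fat diet (42% of energy, 0.2% cholesterol). Each of 4 lean and 4 obese mice gave 1 SAT library, from its left and right inguinal depots together, and 1 VAT library, so that 16 bulk RNA-seq libraries form 4 groups of 4. The study's methods state that vessels visible to the eye were cut away from the tissue before RNA was extracted, so the measured RNA comes from tissue without its larger vessels. No gene was targeted and no cells were sorted.

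Vascular endothelial growth factors (VEGFs) are secreted proteins that bind receptor tyrosine kinases on endothelial cells. VEGF-A acts through VEGFR2, encoded by Kdr, to drive sprouting of new vessels, while VEGFR1, encoded by Flt1, binds VEGF-A and VEGF-B and can hold VEGF-A away from VEGFR2. In a parallel system, angiopoietin 1 activates the receptor TIE2, encoded by Tek, and keeps vessels quiet, and angiopoietin 2, stored and released by endothelial cells, usually opposes it and loosens vessels. Adipose tissue is densely vascularised, and its capillaries grow or thin as fat cells enlarge.

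The 16 libraries held between 1256082 and 16614407 counts. The shallowest were the VAT libraries of lean mouse 1, where 1 count stands for 0.666 CPM (counts per 1000000 counts of the library, with library totals scaled here by the trimmed mean of M-values, TMM), and of obese mouse 1, with 2247737 counts. A count of 0 there allows up to 2 and 1.14 CPM on the same scale (3 counts, counting error only). The depots matched their labels: the fat cell gene Lpl lay between 13837 and 47888 CPM in every library, and the mesothelial gene Upk3b, from the cell layer that covers visceral fat, lay between 168 and 428 CPM in VAT and at most at 0.287 CPM in SAT. In bulk tissue, fewer vessel cells and less RNA per vessel cell cannot be told apart.

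The table counts reads per RefSeq transcript, and the counts of the 10 genes were spread unevenly over their entries. There were 3 genes with 1 entry (Vegfc, Angpt2 and Esm1) and 7 with several. Of the 33 entries, 17 held at least 1 count and 16 were at 0 in every library. Vegfa has 10 entries, of which 9 were at 0 and 1 (NM_001110266) held 153 counts over all libraries. Of the 3 Angpt1 entries only XM_006520323 held counts, 17 in all, and of the 4 Tek entries only XM_006502930, with 213. The 2 entries of Cdh5 gave 334 counts and those of Vegfb 2295, in each case from 1 entry. Kdr and Flt1 were the genes with several entries that all held counts. Of the 14787 Kdr counts over 3 entries, NM_010612 held 99.2%. The 6 Flt1 entries together held 500 counts, 74.2% of them on NM_001363135. Single-entry genes held 3751 (Vegfc), 7127 (Angpt2) and 885 counts (Esm1).

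**Figure D1:**
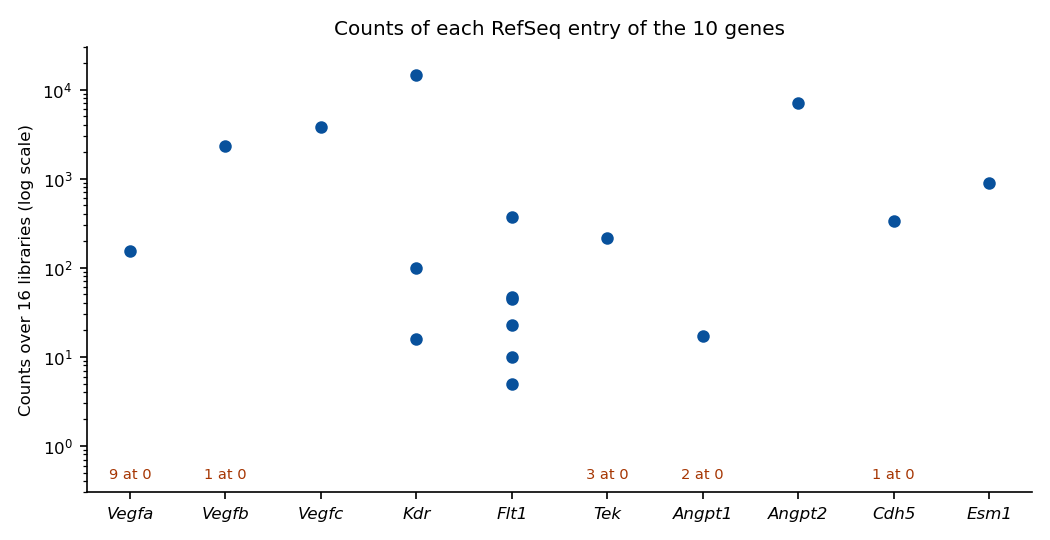
Counts of each RefSeq entry over the 16 libraries, on a log axis, with 1 point per entry and the number of entries at 0 written at the foot of each gene. All 6 Flt1 and all 3 Kdr entries held counts, whereas 9 of 10 Vegfa entries were at 0.

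How reads shared by several transcripts were counted is not given in the sources used here. Low sums of genes with several entries are therefore not read as low expression, levels are compared between libraries and not between genes, and a fold change of such a gene describes the entries that held counts. The endothelial gene Pecam1, which has 4 entries, was at 0 counts in all 16 libraries, so a standard vessel marker was not measurable in this table.

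Promoter sequences, 250 bases before to 50 after a start site, were found in RefSeq (GRCm38.p6) for 7 of the 10 genes, in 8 windows. Those of Kdr (chr5:75978406-75978705, minus strand) and Vegfb (chr19:6987602-6987901, minus strand) are shown because these genes passed the test between depots described further on. Capitals mark GGGCGG on either strand, the GC box bound by Sp-family factors.
Kdr promoter: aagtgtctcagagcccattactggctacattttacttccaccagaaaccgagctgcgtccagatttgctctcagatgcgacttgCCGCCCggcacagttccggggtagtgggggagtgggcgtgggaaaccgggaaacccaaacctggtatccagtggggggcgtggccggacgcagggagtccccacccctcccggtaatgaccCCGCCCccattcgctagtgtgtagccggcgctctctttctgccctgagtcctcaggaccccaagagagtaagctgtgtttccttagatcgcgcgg
Vegfb promoter: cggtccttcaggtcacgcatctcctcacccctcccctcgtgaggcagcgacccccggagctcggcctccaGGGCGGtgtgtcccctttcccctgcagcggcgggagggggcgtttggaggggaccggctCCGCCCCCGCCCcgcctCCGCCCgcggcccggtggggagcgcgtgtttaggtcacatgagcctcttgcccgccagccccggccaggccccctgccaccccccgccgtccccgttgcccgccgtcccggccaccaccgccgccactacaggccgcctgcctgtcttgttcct
The Kdr window held 2 GC boxes and the Vegfb window 4, of which 2 stand side by side. A GC box was present in 6 of the 8 member windows and in 35.7% of all 32851 windows of this length. On either strand, the ETS motif CCGGAAG was in 0 of 8 member windows (8.86% of all windows), ACGTG, the core of the hypoxia response element, in 1 (19.6%), and TATAAA in 1 (13.6%). Those are letter matches in short windows and not binding sites.

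Each gene was first compared between obese and lean mice within a depot. None of the 9 members tested was called in either depot (edgeR quasi-likelihood test, adjusted p below 0.05 by Benjamini-Hochberg over 12185 genes), where 11.6% of all genes tested were called in SAT and 12.2% in VAT. The members' median log2 fold change was 0.04 in SAT and -0.05 in VAT, against 0.00 and -0.02 over all genes tested. At an unadjusted p below 0.05 there were 2 members in SAT, Angpt2 and Flt1, and 2 in VAT, Angpt2 and Esm1, against 26.0% and 24.8% of all genes. On the TMM scale the groups of 2 members did not overlap in SAT (17.3% of all genes) and those of 0 in VAT (14.3%). Per table row and with no filter on low counts, the Angpt2 entry was the member entry called, higher in SAT (1.99% of all entries) and in VAT (1.95%). Angpt1 did not pass the filter (CPM above 1 in at least 3 of 16 libraries) and was not tested.

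**Figure D2:**
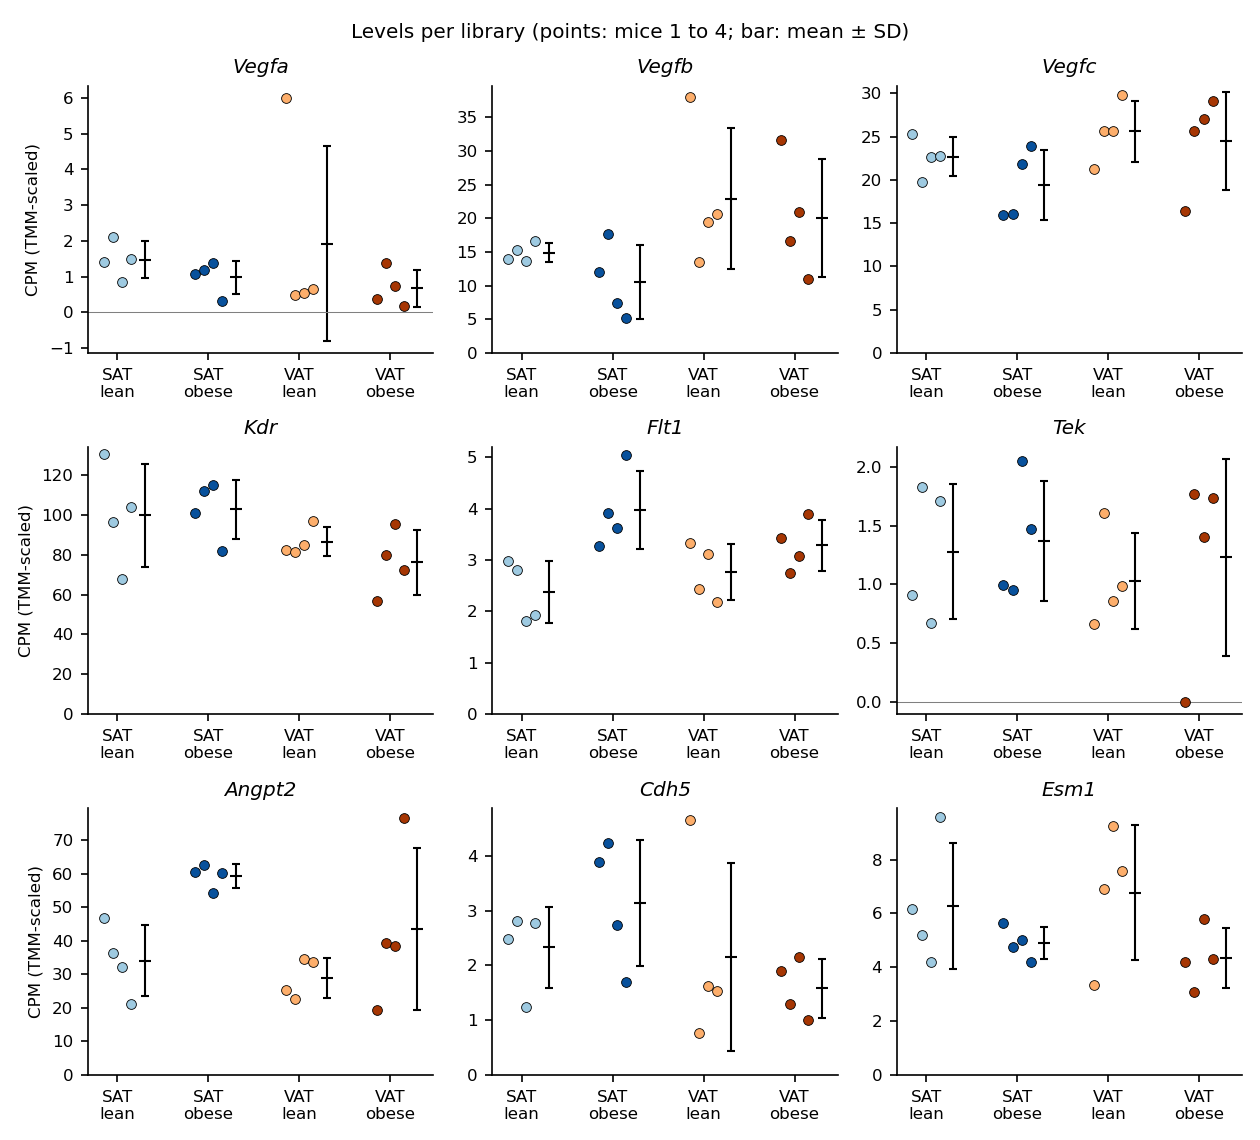
TMM-scaled CPM of the 9 members tested, 1 panel per gene, with points for mice 1 to 4 of each group and a bar for the mean ± SD. For Angpt2, the 4 obese SAT libraries sat between 54.1 and 62.6 CPM, above all 4 lean SAT libraries, and the high Vegfa point in lean VAT, 5.99 CPM, is 9 counts of the shallowest library.

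Angpt2 (chr8:18739202-18791603, minus strand; all gene coordinates in GRCm39), the antagonist ligand of TIE2, had the smallest adjusted p of the 9 in SAT. In lean SAT it stood at 46.9, 36.3, 32.1 and 21.3 CPM in mice 1 to 4, and in obese SAT at 60.4, 62.6, 54.1 and 60.1 CPM. On this scale every obese library was above every lean library, a separation in this direction that 9.50% of all genes tested showed. With library totals alone, as in the deposited CPM, the groups overlapped at 1 obese library (21.7 to 47.4 CPM in lean and 47.1 to 54.5 CPM in obese SAT). The log2 fold change was 0.78 (SE 0.26, 95% interval 0.23 to 1.33), and the adjusted p of 0.0573 lay just outside the threshold. Angpt2 was called in 8 of the 20 fits of this comparison, with adjusted p between 8.16e-05 and 0.177. Among those 8 were DESeq2 (0.80, adjusted p = 0.0404), a fit of the 8 SAT libraries alone (0.77, adjusted p = 0.00966) and the fit without the 2 shallowest VAT libraries (0.78, adjusted p = 0.0229). Among those that did not call it were library totals (0.58, adjusted p = 0.152), the fit without lean mouse 4 (0.61, adjusted p = 0.177) and the fit without lean mouse 3 (0.75, adjusted p = 0.135).

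In VAT, Angpt2 read 25.3, 22.6, 34.5 and 33.6 CPM in lean mice and 19.4, 39.4, 38.3 and 76.7 CPM in obese mice. Obese mouse 4 was far above the rest and obese mouse 1, a shallow library with 51 counts, was the lowest of all 8. Its log2 fold change was 0.61 (SE 0.27, adjusted p = 0.165). It was 0.84 without obese mouse 1 (adjusted p = 0.0306) and 0.21 without obese mouse 4 (adjusted p = 0.706), so the size of the VAT difference rested on single libraries.

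The other two members of the TIE2 system had too few counts for a firm statement. Tek (chr4:94627291-94763224, plus strand), the TIE2 receptor, read 0.914, 1.83, 0.669 and 1.71 CPM in lean SAT and 0.991, 0.954, 2.05 and 1.47 CPM in obese SAT. In VAT it read 0.666, 1.61, 0.861 and 0.988 CPM in lean mice and 0, 1.77, 1.4 and 1.74 CPM in obese mice, where the 0 is a count of 0 in the shallow library of obese mouse 1. The groups overlapped in both depots, and the intervals of the log2 fold change, -0.75 to 1.15 in SAT and -0.67 to 1.30 in VAT, left room for a change of more than 1 in either depot. Angpt1 (chr15:42288058-42540417, minus strand), the activating ligand, had between 0 and 3 counts per library and 0 counts in 8 of the 16 libraries.

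Kdr (chr5:76093487-76139884, minus strand), the receptor that carries most VEGF-A signalling, had the most counts of the 10 genes and the narrowest intervals. In SAT it read 130.5, 96.5, 67.9 and 104 CPM in lean mice and 101, 112, 115 and 82.1 CPM in obese mice. In VAT it read 82.6, 81.5, 85.1 and 97.2 CPM in lean mice and 56.7, 80, 95.6 and 72.6 CPM in obese mice. All obese SAT values lay within the range of the lean ones, and the VAT groups overlapped. The log2 fold change with obesity was 0.04 in SAT (95% interval -0.31 to 0.39, adjusted p = 0.925) and -0.17 in VAT (-0.53 to 0.18, adjusted p = 0.593).

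Flt1 (chr5:147498414-147662826, minus strand), which encodes VEGFR1 and a secreted form of it, was the second gene whose SAT groups did not overlap on the TMM scale. It read 2.99, 2.81, 1.82 and 1.92 CPM in lean SAT (9 to 36 counts) and 3.28, 3.92, 3.63 and 5.04 CPM in obese SAT (37 to 65 counts). With library totals alone the groups overlapped, at 1.7 to 3.03 CPM in lean and 2.9 to 3.94 CPM in obese SAT. Its log2 fold change was 0.71 (SE 0.25, 95% interval 0.19 to 1.23, adjusted p = 0.0711), and it was called in 0 of 20 fits, with adjusted p between 0.0515 and 0.221. The entry with most counts, NM_001363135, gave 0.63 by itself (adjusted p = 0.155 over 13288 table rows). In VAT the values were 3.33, 2.44, 3.12 and 2.19 CPM in lean mice and 3.43, 2.74, 3.08 and 3.9 CPM in obese mice, overlapping, with a log2 fold change of 0.30 (SE 0.27, adjusted p = 0.545).

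Of the 3 ligands, none was called. Vegfa (chr17:46327919-46343309, minus strand), the chief sprouting signal, read 1.41, 2.11, 0.86 and 1.49 CPM in lean SAT and 1.07, 1.17, 1.37 and 0.31 CPM in obese SAT, from 4 to 20 counts per library. In VAT it read 5.99, 0.477, 0.538 and 0.658 CPM in lean mice and 0.381, 1.37, 0.746 and 0.166 CPM in obese mice, from 1 to 17 counts. The lean VAT mean of 1.92 CPM was carried by mouse 1, whose 5.99 CPM are 9 counts. The log2 fold changes were -0.55 (95% interval -1.87 to 0.76) in SAT and -0.46 (-2.04 to 1.11) in VAT, and the VAT value was 0.39 without lean mouse 1.

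Vegfb (chr19:6958447-6965127, minus strand), a VEGFR1 ligand linked to fatty acid handling rather than sprouting, read 14, 15.3, 13.6 and 16.6 CPM in lean SAT and 12, 17.6, 7.46 and 5.19 CPM in obese SAT. The lean libraries were close together, and the obese ones spread around and below them. In VAT it read 38, 13.5, 19.5 and 20.6 CPM in lean mice and 31.6, 16.6, 20.9 and 11 CPM in obese mice, and the highest value of each diet was a shallow library. The log2 fold change was -0.50 in SAT (SE 0.33, adjusted p = 0.365) and -0.15 in VAT (SE 0.34, adjusted p = 0.847). Over 20 fits the SAT value ran from -0.84 to -0.28, with 0 calls.

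Vegfc (chr8:54530257-54640131, plus strand), the ligand of the lymphatic receptor VEGFR3, read 25.3, 19.8, 22.7 and 22.8 CPM in lean SAT and 15.9, 16.1, 21.8 and 23.9 CPM in obese SAT. In VAT it read 21.3, 25.6, 25.6 and 29.8 CPM in lean mice and 16.4, 25.7, 27 and 29.1 CPM in obese mice. The groups overlapped in both depots. Its log2 fold change was -0.22 in SAT (SE 0.17, adjusted p = 0.452) and -0.05 in VAT (95% interval -0.42 to 0.31, adjusted p = 0.897). Over 20 fits the SAT value ran from -0.44 to -0.14, with 0 calls.

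Cdh5 (chr8:104828231-104871143, plus strand) encodes VE-cadherin, the adhesion protein of endothelial junctions. It read 2.49, 2.81, 1.24 and 2.77 CPM in lean SAT and 3.89, 4.24, 2.74 and 1.7 CPM in obese SAT. In VAT it read 4.66, 0.775, 1.62 and 1.54 CPM in lean mice and 1.9, 1.29, 2.15 and 0.996 CPM in obese mice, where the highest value again came from the shallowest library, with 7 counts. The groups overlapped, and the log2 fold change was 0.45 in SAT (SE 0.39, adjusted p = 0.51) and -0.02 in VAT (95% interval -1.03 to 0.99).

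Esm1 (chr13:113346021-113354632, plus strand), a secreted proteoglycan of endothelial tip cells, had the smallest adjusted p of the 9 in VAT. Its VAT levels were 3.33, 6.91, 9.26 and 7.57 CPM for lean mice and 4.19, 3.07, 5.78 and 4.31 CPM for obese mice. The lean value within the obese range is that of mouse 1, with 5 counts, and the other 3 lean libraries were above all 4 obese ones. Obese against lean, it stood at -0.74 on the log2 scale (SE 0.27, 95% interval -1.31 to -0.18, adjusted p = 0.0838). Without lean mouse 1 it was -0.86 (adjusted p = 0.0383) and without the 2 shallowest VAT libraries -0.85 (adjusted p = 0.049), whereas it was -0.56 without lean mouse 3 (adjusted p = 0.274) and -0.55 without obese mouse 2 (adjusted p = 0.308). Esm1 was called in 3 of 20 fits of this comparison, with adjusted p between 0.0383 and 0.308. In SAT it read 6.15, 5.2, 4.21 and 9.59 CPM in lean mice and 5.64, 4.77, 5 and 4.18 CPM in obese mice (log2 fold change -0.32, SE 0.26, adjusted p = 0.484). Over the 20 fits this SAT value ran from -0.53 to -0.1, with 0 calls.

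**Figure D3:**
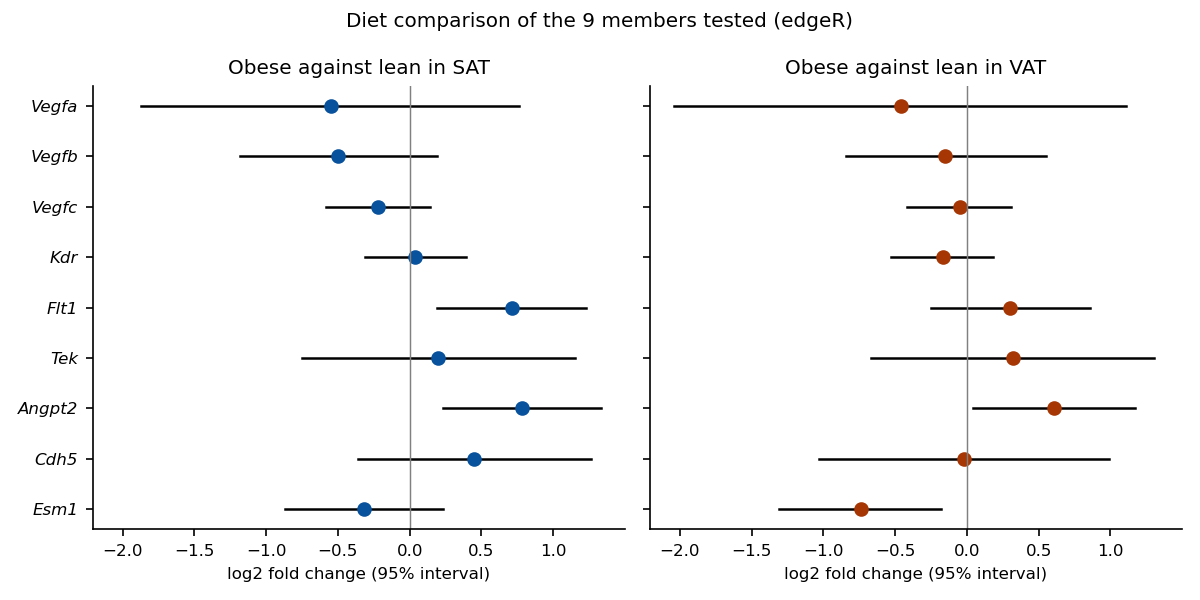
Log2 fold change of obese against lean mice with its 95% interval for the 9 members tested, in SAT (left) and VAT (right). The intervals of Angpt2 and Flt1 in SAT and of Angpt2 and Esm1 in VAT lie on 1 side of 0, and no member passed the adjusted threshold.

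Whether the response to the diet differed between depots was tested with a block for each mouse. It was called for 0 of the 9 members, against 2.47% of all genes, and 0 members had an unadjusted p below 0.05 (15.1% of all genes). Differences (VAT response minus SAT response, log2) ran from -0.53 for Flt1 (SE 0.40) to 0.46 for Vegfb (SE 0.35), and the smallest adjusted p was 0.561. For Angpt2 the difference was -0.36 with a 95% interval of -1.06 to 0.33, and for Kdr -0.27 (-0.68 to 0.13).

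Depots were then compared within the same mice. In lean mice 0 of 9 members were called between VAT and SAT (15.9% of all genes called), and 0 had an unadjusted p below 0.05 (28.1%). In obese mice 2 of 9 were called, against 31.4% of all genes in either direction. Vegfb was higher (16.3% of all genes) and Kdr lower (15.1%) in VAT. At an unadjusted p below 0.05 there were 5 of 9 members (41.2% of all genes), which added Angpt2, Cdh5 and Vegfc. Neither share was tested against that of all genes.

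Vegfb rose from 12, 7.46 and 5.19 CPM in SAT to 31.6, 20.9 and 11 CPM in VAT of obese mice 1, 3 and 4, and was 17.6 in SAT and 16.6 CPM in VAT of mouse 2. The groups overlapped although 3 of 4 mice were higher in VAT. The log2 difference was 0.95 (SE 0.25, adjusted p = 0.00526), and between 0.79 and 1.35 with each mouse left out in turn. Without the mouse block it was 0.87 with an adjusted p of 0.0504. In lean mice the log2 difference was 0.50 (SE 0.25, adjusted p = 0.195) and 3 of 4 mice were higher in VAT.

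Kdr was lower in VAT than SAT in 4 of 4 obese mice, from 101 to 56.7, 112 to 80, 115 to 95.6 and 82.1 to 72.6 CPM. The log2 difference was -0.43 (SE 0.14, adjusted p = 0.0218). This call was lost without obese mouse 1 (-0.27, adjusted p = 0.198), without obese mouse 2 (-0.38, adjusted p = 0.108), without obese mouse 3 (-0.46, adjusted p = 0.0552), without the 2 shallowest VAT libraries (-0.31, adjusted p = 0.0726), without the mouse block (-0.42, adjusted p = 0.0696) and with limma voom, the mouse as a random effect (-0.39, adjusted p = 0.0508). Scaled by library totals alone, as in the deposited CPM, the difference was -0.07 (adjusted p = 0.735), so that Kdr was called in 12 of 19 fits. That scaling moved the median of all genes in this comparison from 0.02 under TMM to 0.38, and Vegfb then stood at 1.31. Lean mice had a log2 difference of -0.15 (SE 0.14, adjusted p = 0.522), lower in VAT in 3 of 4 mice.

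Of the members that were not called in obese mice, Cdh5 was lower in VAT in 4 of 4 mice (log2 difference -0.95, SE 0.39, adjusted p = 0.0726), with values from -1.18 to -0.60 and a call in 2 of 19 fits. Angpt2 stood at -0.54 (SE 0.23, adjusted p = 0.0808), lower in 3 of 4 mice, with values from -0.84 to -0.19 and a call in 2 of 19 fits. Vegfc was 0.34 higher in VAT (SE 0.15, adjusted p = 0.0915), in 4 of 4 mice, with values from 0.26 to 0.70 and a call in 4 of 19 fits. The difference of the depot contrast between diets is the same quantity as the difference of the diet response, which no member passed.

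**Figure D4:**
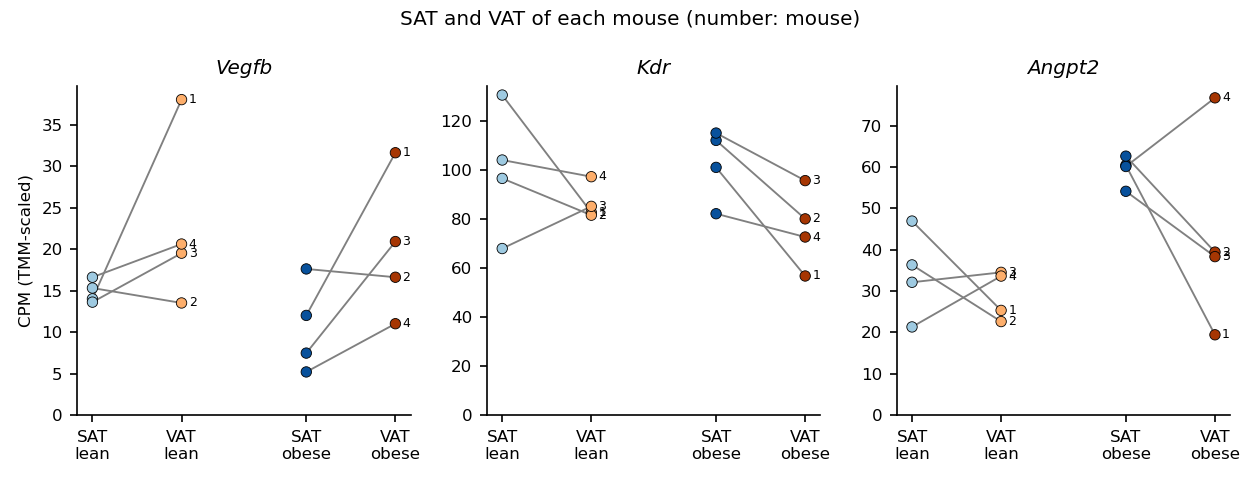
CPM of Vegfb, Kdr and Angpt2 in SAT and VAT, with a line joining the depots of each mouse and its number at the right. Kdr fell from SAT to VAT in 4 of 4 obese mice, and Vegfb was higher in VAT in 3 of 4.

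By mean level, Kdr ran from high to low through obese SAT, lean SAT, lean VAT and obese VAT, and Vegfb through lean VAT, obese VAT, lean SAT and obese SAT. Esm1 ran through lean VAT, lean SAT, obese SAT and obese VAT. These orders held without the 2 shallowest VAT libraries, as did those of Flt1, Angpt1 and Angpt2, while those of Vegfa, Vegfc, Tek and Cdh5 changed. For Vegfa, lean VAT had the highest mean of the 4 groups with all libraries (1.92 CPM) and the lowest without the shallow ones (0.558 CPM). For Cdh5, lean VAT was above obese VAT with all libraries (2.15 and 1.58 CPM) and below it without them (1.31 and 1.48 CPM). The highest group mean exceeded the lowest by 1.32 times for Vegfc, 1.34 for Kdr and 2.05 for Angpt2. Groups next to each other in a gene's order overlapped for all 9 genes tested. Obese and lean SAT were not neighbours for Angpt2, with obese VAT between them, or for Flt1, with both VAT groups between them.

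Other endothelial genes gave a wider view. Of 32 listed, 23 were tested, and the other 9 all have several entries (4 of them at 0 counts). In SAT 7 of the 23 rose with obesity and 0 fell, with a median log2 fold change of 0.46 against 0.00 over all genes (6.35% of all genes were called higher). Of the 11 tested that have 1 entry, 5 rose. The number was 13 without lean mouse 1, which had the highest summed level of the lean SAT libraries, and 12 of 28 with no filter on low counts. With library totals the number stayed at 7 and the median was 0.26, where that of all genes stood at -0.20. In VAT 1 of the 23 rose and 0 fell, with a median of 0.17 (6.89% of all genes called higher). The number was 2 without lean mouse 1, and the median was 0.26 without lean mouse 3, 0.30 without obese mouse 2 and 0.11 without obese mouse 4.

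The SAT genes were led by Vwf, von Willebrand factor of platelet adhesion, which read 6.9, 6.18, 4.59 and 2.56 CPM in lean SAT and 15.3, 16.4, 20.2 and 12.8 CPM in obese SAT (log2 fold change 1.63, SE 0.25, adjusted p = 1.62e-04). S1pr1, a sphingosine 1-phosphate receptor of endothelial cells and lymphocytes, went from 417, 216, 227 and 179.9 CPM to 589.5, 609, 507 and 674 CPM (1.19, SE 0.19, adjusted p = 2.66e-04). It was also the gene that rose in VAT (0.80, SE 0.19, adjusted p = 0.00758). The groups did not overlap for either gene in SAT, also with library totals alone. Mmrn2, an endothelial matrix protein, rose by 0.80 (SE 0.15) and Cyyr1 by 0.87 (SE 0.17), and the remaining 3 were Adgrl4 (0.77), Clec14a (0.73) and Podxl (0.70).

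Summed over the list, endothelial genes held 2173, 1535, 1320 and 1428 CPM in lean SAT and 2445, 2764, 2661 and 2580 CPM in obese SAT, which do not overlap. With library totals alone they do, at 1237 to 2198 CPM in lean and 2020 to 2407 CPM in obese SAT, where 2 obese libraries lay below the highest lean one. In VAT the sums were 1720, 1673, 1797 and 1900 CPM in lean mice and 1702, 1996, 2292 and 2464 CPM in obese mice, which overlap. Of mean sums of 1614 CPM in lean and 2612 CPM in obese SAT, S1pr1, which lymphocytes also carry, held 259.9 and 595 CPM. In VAT it held 279.7 of 1773 CPM in lean and 485 of 2113 CPM in obese mice. Genes of other cells moved in the same comparisons. Of 9 macrophage genes tested, 5 rose in SAT (summed level of all 12 listed genes 1448 to 2065 CPM in lean and 2340 to 3321 CPM in obese libraries) and 9 in VAT (2482 to 3223 and 5447 to 8760 CPM). Of 8 lymphocyte genes tested, 0 were called in SAT and 5 rose in VAT (summed level of the 11 measured genes 39.7 to 247 CPM in lean and 204 to 362 CPM in obese libraries). Of 11 fat cell genes tested, 1 fell in SAT and 4 in VAT. Of all 12185 genes tested, 774 rose and 640 fell in SAT, and 839 rose and 643 fell in VAT. The part of these other cells in the endothelial differences was not tested.

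**Figure D5:**
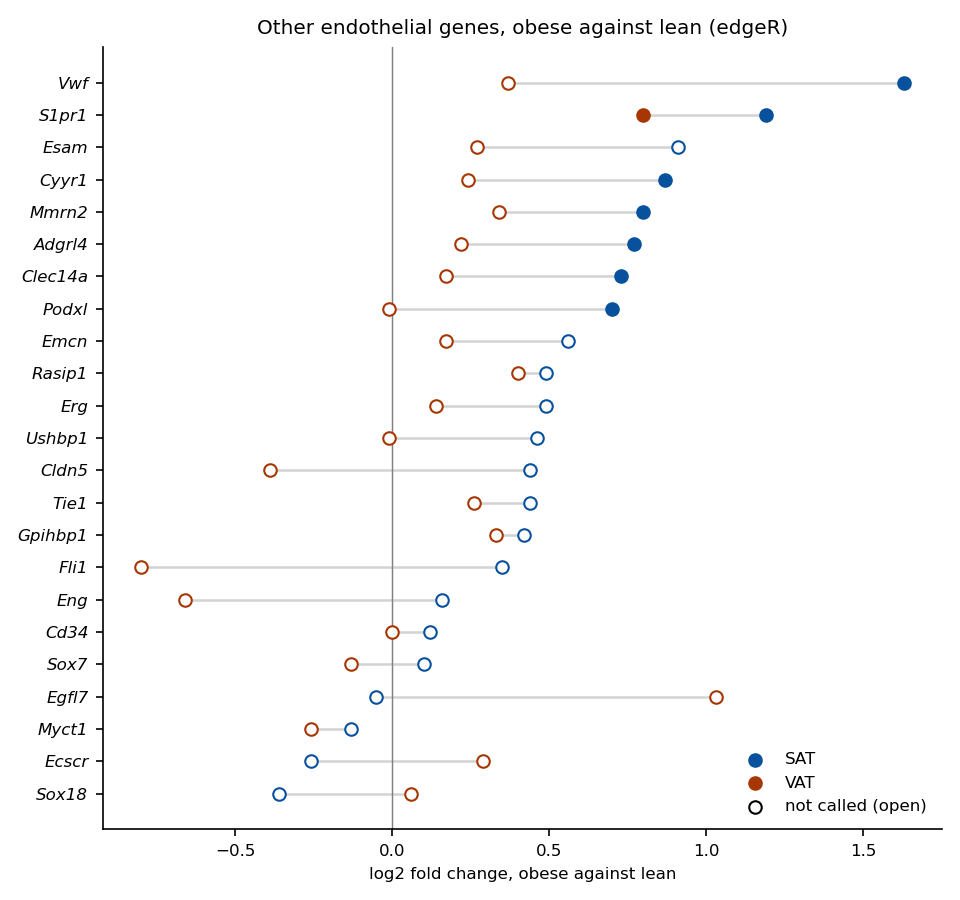
Log2 fold change of obese against lean mice for the 23 other endothelial genes tested, in SAT (blue) and VAT (brown), filled where called and open where not. Filled points are 7 in SAT and 1 in VAT (S1pr1).

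The diet response of 3 endothelial genes differed between depots, all lower in VAT than in SAT (1.62% of all genes): Vwf (-1.37, SE 0.31, adjusted p = 0.0187), Cldn5, a tight junction protein (-0.85, SE 0.21, adjusted p = 0.034), and Podxl (-0.75, SE 0.19, adjusted p = 0.0415). Cldn5 read 166, 121, 75.5 and 86.1 CPM in lean and 157, 225, 111 and 119 CPM in obese SAT, and was itself not called in SAT (0.44, adjusted p = 0.241) or VAT (-0.39, adjusted p = 0.362). The count was 0 of 23 without the mouse block, with library totals, and without lean mouse 3, lean mouse 4, obese mouse 1 or obese mouse 2. It was 1 without lean mouse 2 or obese mouse 3, 7 without lean mouse 1 and 5 without the 2 shallowest VAT libraries. Between depots, 4 of the 23 were higher and 2 lower in VAT in lean mice (15.9% of all genes called in either direction), and 2 higher (16.3% of all genes) and 8 lower (15.1%) in obese mice. The lower ones in obese mice included Cldn5 (-1.15, SE 0.15, adjusted p = 6.11e-06) and Cyyr1 (-0.53, SE 0.14, adjusted p = 0.00642), and the split was 6 higher and 4 lower with library totals, where the median of all genes stands at 0.38. The number lower was 5 without obese mouse 1, 3 without obese mouse 2 and 4 without obese mouse 3, and the number higher 0 without obese mouse 4 or the mouse block and 1 without obese mouse 3.

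Podxl is also made by mesothelial cells, and the mesothelial list lay between 0.332 and 1.83 CPM in SAT and 264 and 646 CPM in VAT. The part of mesothelial cells in the Podxl values was not tested.

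The smaller lists that follow are read against the 11.6% of all genes called in SAT and the 12.2% called in VAT. Among the other VEGF family genes, 3 of 5 were tested and 1 was called in SAT: Flt4, which encodes VEGFR3, the receptor of VEGF-C. It read 46.6, 30.6, 26.5 and 24.5 CPM in lean and 50.4, 59.8, 49.8 and 38.1 CPM in obese SAT, overlapping at lean mouse 1 (log2 fold change 0.61, SE 0.17, adjusted p = 0.0197). The SAT call was lost without lean mouse 2, 3 or 4 or obese mouse 1, 2 or 3 (0.50 to 0.61, adjusted p 0.0501 to 0.0834). In VAT it was not called (0.32, adjusted p = 0.259). The list of remaining angiopoietin and TIE genes had 0 of 4 called in either depot. Angptl2 and Angptl4, which encode angiopoietin-like proteins, were among those tested. Tie1 stood at 0.44 (adjusted p = 0.11) in SAT. Of the Notch genes tested, 1 of 7 rose in SAT, the target gene Hey1 (0.87, SE 0.28, adjusted p = 0.0434), and 0 in VAT. The Hey1 call was lost without lean mouse 2 or 4 or obese mouse 1, 2 or 3 (0.73 to 0.88, adjusted p 0.0808 to 0.139).

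Tip cell and sprouting genes went both ways. Of 10 tested, the chemokine receptor Cxcr4, which leukocytes also carry, rose in SAT (1.10, SE 0.32, adjusted p = 0.0297) and VAT (1.91, SE 0.33, adjusted p = 5.06e-04). The basement membrane gene Nid2 fell in both (-0.53, adjusted p = 0.0346, and -0.75, adjusted p = 0.00374). It read 375, 297, 303 and 416 CPM in lean and 301, 266, 209 and 188 CPM in obese SAT. In SAT the Cxcr4 call was lost without lean mouse 2, 3 or 4 or obese mouse 1, 3 or 4 (0.90 to 1.09, adjusted p 0.0556 to 0.108) and the Nid2 call without lean mouse 1 or 4 or obese mouse 2, 3 or 4 (-0.58 to -0.43, adjusted p 0.0536 to 0.119).

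Hypoxia genes were fixed as a separate list because oxygen shortage induces Vegfa. Of 10 tested, 1 was called in SAT (11.6% of all genes) and 2 in VAT (12.2%). Ddit4, a stress-induced inhibitor of mTORC1 that glucocorticoids and energy stress also induce, stood at 115, 34.1, 28 and 60.8 CPM in lean and 234, 311, 183 and 282 CPM in obese SAT (log2 fold change 2.08, SE 0.33, adjusted p = 2.66e-04), and rose by 2.27 in VAT (SE 0.35, adjusted p = 1.70e-04). Pfkfb3, a regulator of glycolysis which has 13 entries, fell in VAT (-1.49, SE 0.37, adjusted p = 0.00909), though not past the threshold without obese mouse 4 (-1.16, adjusted p = 0.053). The list's median log2 fold change was 0.14 in SAT and 0.03 in VAT.

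Inhibitors of vessel growth included 1 called gene of 8 in SAT and 3 in VAT. Thbs2, thrombospondin 2, rose in both, from 252, 305, 321 and 266 CPM to 463, 367, 484 and 424 CPM in SAT (log2 fold change 0.60, SE 0.13, adjusted p = 0.0053) and by 0.55 in VAT (SE 0.14, adjusted p = 0.00872). Thbs1 fell in VAT (-1.10, SE 0.30, adjusted p = 0.0164), and its response differed between depots (-1.69, SE 0.30, adjusted p = 0.00265). Its VAT values were 16.6, 58.5, 27 and 34.3 CPM in lean and 14.1, 22.8, 14.7 and 14 CPM in obese mice. Serpinf1, pigment epithelium-derived factor, which fat cells and progenitors also secrete, rose in VAT (0.56, SE 0.18, adjusted p = 0.0461). The VAT call of Thbs1 was lost without lean mouse 2 or obese mouse 1, 3 or 4 (-1.03 to -0.69, adjusted p 0.0531 to 0.0799). That of Serpinf1 was lost without lean mouse 1, 2 or 3 or obese mouse 2, 3 or 4 (0.46 to 0.60, adjusted p 0.0927 to 0.128).

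Of 9 other angiogenic ligands and receptors tested, 4 were called in SAT and 2 in VAT. Fgf2, fibroblast growth factor 2, fell in both depots, from 155, 301, 216 and 174 to 103, 108, 129 and 156 CPM in SAT (log2 fold change -0.77, SE 0.18, adjusted p = 0.00654) and by 0.56 on the log2 scale in VAT (SE 0.18, adjusted p = 0.0419). Cxcl12, the ligand of CXCR4, rose in SAT (0.67, SE 0.13, adjusted p = 0.00145) and VAT (0.40, SE 0.13, adjusted p = 0.044). Angiogenin, Ang, fell in SAT (-0.88, SE 0.22, adjusted p = 0.0122), and the remaining call in SAT was Ptn, pleiotrophin. Ptn had 106 counts in all libraries and CPM above 1 in no obese library, so it passed the filter on low counts through lean libraries alone, and its call is not read as a result. It read 2.91, 1.41, 0.573 and 0.213 CPM in lean and 0.305, 0.106, 0.274 and 0.155 CPM in obese SAT, overlapping. The VAT calls were lost without lean mouse 2 or 3 or any obese mouse for Fgf2 (-0.59 to -0.41, adjusted p 0.0739 to 0.149) and without lean mouse 1, 2 or 4 or obese mouse 2, 3 or 4 for Cxcl12 (0.34 to 0.46, adjusted p 0.0555 to 0.153).

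Of the 6 pericyte and smooth muscle genes tested, Cspg4 (NG2) rose in SAT (0.91, SE 0.28, adjusted p = 0.0379), and its response was lower in VAT (-1.10, SE 0.27, adjusted p = 0.0357). It read 48.2, 42, 62.4 and 81.2 CPM in lean and 119, 168, 86.3 and 63.4 CPM in obese SAT, overlapping. The SAT call was lost without lean mouse 1, 2 or 3 or obese mouse 1 or 2 (0.63 to 0.94, adjusted p 0.0647 to 0.169), and that of the difference without lean mouse 1, 2 or 3 or obese mouse 2, 3 or 4 (-1.16 to -0.81, adjusted p 0.0643 to 0.113).

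Of the 5 lymphatic endothelial genes tested, 3 passed the filter on low counts in both depots, Lyve1, Pdpn and Flt4, and each was higher in VAT in lean (8.67% of all genes called higher) and in obese mice (16.3%). Ccl21a and Mmrn1 exceeded 1 CPM in no SAT library and so passed through VAT alone. Their call is not read as a result, and their mean levels were at most 0.494 CPM in a SAT group and at least 5.59 CPM in a VAT group. Lyve1, a hyaluronan receptor that macrophages also carry, differed by 1.44 (SE 0.17, adjusted p = 2.78e-06) in lean and 1.33 (SE 0.17, adjusted p = 3.37e-06) in obese mice. Pdpn differed by 1.74 (SE 0.17, adjusted p = 2.92e-07) in lean and 1.78 (SE 0.16, adjusted p = 4.91e-08) in obese mice. In bulk tissue the cells that carried these transcripts cannot be told apart. Flt4 differed by 0.81 (SE 0.14, adjusted p = 3.68e-04) in lean and 0.45 (SE 0.14, adjusted p = 0.0145) in obese mice. Summed, the list held 95.4 to 154 CPM in lean SAT, 147 to 188 in obese SAT, 300.0 to 411 in lean VAT and 376 to 499 in obese VAT. Of that sum Lyve1 had a mean of 85.5 CPM in lean SAT and 227 CPM in lean VAT. Genes of other cells differed between the depots as well. Of 9 macrophage genes tested, 4 were higher in VAT in lean and 9 in obese mice, 1 of them (Trem2) having passed the filter through VAT alone. Lymphocyte genes summed to 7.46 to 15.1 CPM in SAT and 39.7 to 362 CPM in VAT, and mesothelial genes to the levels given for Podxl, with 4 of 8 and 7 of 8 of those tested having passed through VAT alone. Their part in the lymphatic difference was not tested.

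Likeness between genes is given as Pearson's r of log2 CPM over the 16 libraries, which share depots and depth, as a description. Among pairs of members the highest r was 0.70 for Vegfa and Cdh5, both at few counts, followed by 0.60 for Flt1 and Angpt2, and the lowest was -0.65 for Vegfc and Cdh5. The genes most like Cdh5 were Kank2 (0.83), Psmd3 (0.82), Ece1 (0.81), Kdm5b (0.80) and Alas1 (0.79), and those most like Vegfa were Kdm5b (0.83), Ddx27 (0.82), Gm31637 (0.81), St7l (0.81) and Dnajc4 (0.79). For Kdr, which was added after its values were seen because it has the most counts, they were Pcdh12 (0.86), Arhgef26 (0.84), Itsn1 (0.84), Rflnb (0.80) and Mir126a (0.79). Pcdh12, a protocadherin, and Mir126a, a microRNA gene, are known from endothelial cells, and Mir126a lies inside the gene Egfl7, so their reads could not be told apart without the counting rule.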

How the data were processed

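The authors made poly-A directional paired-end libraries, trimmed reads with Trim Galore 0.6.6, aligned them with HISAT2 2.2.0 to GRCm39 with its RefSeq annotation and counted them with HTSeq 0.13.5 (versions from the submitters' processing notes). The strand setting and the treatment of reads shared by several transcripts are not given in the sources used here. The deposited counts are raw reads per RefSeq entry, and the deposited CPM equal them scaled to the column total (largest difference 4.7e-10). CPM given here were recomputed with TMM factors.

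Entries were named by accession from a RefSeq table (GRCm38.p6, names only), which gave a symbol to 106821 of 130343, and counts were summed per symbol. Entries without a symbol stayed single. Gene coordinates are GENCODE's in GRCm39. Genes with CPM above 1 in at least 3 of 16 libraries (12185) were tested by quasi-likelihood F-tests of edgeR 4.0.16 (R 4.3.3, legacy=TRUE, TMM scaling), adjusted by Benjamini-Hochberg and called below 0.05. Diets were compared with 4 group means. Depots and the difference of the diet response had the mouse as a block, because SAT and VAT came from the same animals. Deviations of the depots of 1 mouse correlated at -0.00144 to 0.175 (median 0.0765), and of different mice of 1 diet at a median of -0.0373. Lean and obese libraries of 1 depot that share only a number correlated at a median of 0.0675, and those of different numbers at -0.0219. Such likeness was therefore not particular to the mouse. Scripts were tested on simulated data in which 200 genes were changed by 1.5 on the log2 scale. The difference of the diet response recovered 47% of them, and the other comparisons recovered 75.5% to 90%. DESeq2 1.42.0, limma 3.58.1 voom, other filters and scalings, table rows and leaving out each mouse were alternatives.

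The members and gene lists were chosen with earlier results of these data known. Named beside the members are up to 4 called genes of smallest adjusted p per vessel list and diet comparison or difference, up to 3 genes of highest CPM per list of other cells, and 5 genes most like Cdh5 and Vegfa. Pecam1, Adgrl4, Clec14a, Tie1, Angptl2, Angptl4 and the genes like Kdr were named after their values were seen. Each group's 4 libraries are 4 mice. Precision follows the counts behind each value. Intervals of the diet comparisons cover the spread between these mice, estimated over all 16 libraries of both depots. Those between depots and of the difference of the diet response cover the spread left after the mouse block.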

Additional observations from a re-analysis of the deposited data

Results flagged for a closer look

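Each member's 4 libraries of a group were screened for a value far from the other 3 (Dixon's criterion), 40 groups in all, of which chance flags about 1 in 20. It marked 2. Vegfa stood at 5.99 CPM in the VAT library of lean mouse 1, far above the other 3 lean VAT libraries, and that value is 9 counts in the shallowest library. Angpt1 stood at 0.287 CPM in the SAT library of lean mouse 3, which is 3 counts where the other 3 lean SAT libraries had 0.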

How the results depend on the processing

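Of 827 fits of a member under an alternative, 747 kept direction and side of the threshold and 51 changed sign. With obesity in SAT, the count of members called higher was 0, and 1 (Angpt2) with no filter on low counts, legacy=FALSE, DESeq2, voom, the SAT libraries alone or without the 2 shallowest VAT libraries, and 0 to 1 over the mice left out. In VAT 1 was higher with no filter (Angpt2), 1 lower (Esm1) with legacy=FALSE or without the shallowest libraries, and 0 to 1 each way over the mice. Per table row with no filter, 1 member was called in SAT and 1 in VAT. Between depots in obese mice, the count lower was 2 with no filter or legacy=FALSE, the count higher 2 with voom (which called Cdh5 lower and not Kdr), without the shallowest libraries or with library totals, and the count lower 0 with either of the last 2 and 0 to 2 over the mice, with 1 to 2 higher.

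SAT and VAT were paired by mouse. Without this replicate block 0 members were higher and 0 lower between depots in obese mice, the Tek difference was 0.05 and the Vegfa diet-response difference 0.09. Lean and obese mice share only numbers, and 2 of 8 such pairs correlated above 0.1, against 3 of 8 pairs of depots of 1 mouse. A replicate block on the number left Angpt2 in SAT at 0.76 (adjusted p = 0.0662) and 0 members called. DESeq2 gave no adjusted p for the Vegfa, Tek and Cdh5 differences. No batch is given in the sources used here.

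The other sign changes were of uncalled values. With library totals, added after seeing the data as was leaving out the shallowest libraries, the median of all genes moved to -0.20 in SAT (429 higher and 1664 lower against 774 and 640), 0.23 for the difference (363 and 100 against 104 and 197), 0.15 between depots in lean mice (1387 and 579 against 1057 and 880) and 0.38 in obese mice (3893 and 778 against 1986 and 1834). Kdr in SAT was then -0.17, Tek -0.01, the Vegfa difference 0.10, and between depots in obese mice Flt1 0.07, Tek 0.27 and Esm1 0.19. Without the shallowest libraries Vegfa in VAT was 0.47, Vegfc 0.02 and Cdh5 0.22, the Vegfa difference 1.01, Angpt2 between lean depots 0.00 and Tek between obese depots 0.15. Cdh5 in VAT was 0.11 with legacy=FALSE, 0.20 with voom and 0.01 per table row, and the Vegfa difference 0.16 with legacy=FALSE and 0.47 with voom. With voom the Tek difference was -0.12 and Tek between lean depots 0.09. Over the mice left out, SAT values ran from -0.11 to 0.20 for Kdr and -0.08 to 0.44 for Tek, and VAT values from -1.16 to 0.39 for Vegfa, -0.36 to 0.11 for Vegfb, -0.12 to 0.10 for Vegfc and -0.37 to 0.27 for Cdh5. Differences ran from -0.73 to 0.86 for Vegfa, -0.17 to 0.43 for Tek and -0.57 to 0.01 for Esm1. Between lean depots they ran from -1.39 to 0.22 for Vegfa, 0.00 to 0.42 for Flt1, -0.46 to 0.00 for Angpt2, -0.80 to 0.10 for Cdh5 and -0.14 to 0.44 for Esm1, and between obese depots from -0.40 to 0.19 for Tek and -0.29 to 0.02 for Esm1. The cause was not tested. Vegfa, Tek, Cdh5 and Angpt1 rest on at most 51 counts in a library.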
